A study of Mus musculus with 4 samples.

Results

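The genes described here had a lower signal when the caspase inhibitor zVAD was added to LPS, and kept more of that loss than they recovered when the RIPK1 inhibitor Nec-1 was added as well. They were chosen from their own values. A low-signal filter kept 12203 genes, of which 438 (3.59%) were at least 2-fold lower with LPS/zVAD than with LPS (a log2 difference of -1 or less) and 3.25% were at least 2-fold higher. In 112 of the 438 (25.6%), the signal with Nec-1 added lay less than midway back from LPS/zVAD to LPS on the log2 scale. Among all filtered genes with any lower signal with LPS/zVAD than with LPS, 32.8% lay below that midpoint. That share holds the 438 themselves and differences of any size, so it cannot be compared with the 25.6%. Leaving out 11 of the 112 by symbol and 5 solute carriers left 96 members, called the unrestored genes below. The 326 zVAD-lowered genes at or past the midpoint are called restored. Of the 96, 88 have a gene name and 8 carry a predicted, clone or pseudogene symbol.

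The cells were macrophages grown for 7 days from bone marrow of female BalbC mice, in medium conditioned by L929 cells, which secrete M-CSF. They were left untreated (control) or given LPS at 10 ng/ml, LPS with zVAD at 50 µM, or LPS with zVAD and Nec-1 at 30 µM. No genotype other than the strain, no mouse age and no treatment time is given in the sources used here. Only 1 array was run per condition, which limits the precision of all values, and the differences have neither a spread between replicates nor a p-value. Nec-1 was given only together with LPS and zVAD, so its effect on LPS-treated cells without zVAD cannot be told apart from its effect on zVAD-treated cells. Values on the 4 arrays are listed below in a fixed order, from control through LPS and LPS/zVAD to the array with both inhibitors. Of 32 measured macrophage identity genes, 31 passed the signal filter. Among these, 5 were at least 2-fold lower with zVAD (3.59% of all filtered genes), and none was an unrestored gene. Unrestored genes were 96 of all 12203 filtered genes, so a list of this size can hold none at that share. Median log2 signals of all probes lay between 6.41 and 6.52 on the 4 arrays.

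LPS is a bacterial cell wall component that signals through TLR4, and it induces cytokines, receptors and adhesion genes in macrophages through NF-kB and interferon signalling. Caspase-8 downstream of TLR4 holds back RIPK1 and RIPK3, so that zVAD together with LPS can start necroptosis, a lytic form of cell death that depends on RIPK1 kinase activity. Nec-1 blocks that kinase. zVAD also inhibits other cysteine proteases, and Nec-1 does not restore caspase activity. In bulk RNA, fewer cells of a type and less RNA per cell cannot be told apart.

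All 96 unrestored genes had their LPS signal above both inhibitor signals, as the choice of members fixes. Their median log2 signals on the 4 arrays were 7.28, 8.93, 7.64 and 8.10. The median difference between LPS/zVAD and LPS was -1.24 (range -2.53 to -1.001). None of the 96 was 2-fold higher or lower with Nec-1 than without it (1.14% and 3.32% of all filtered genes), and the choice of members bears on this count. With Nec-1 the members had regained a median of 34.2% of the log2 distance between LPS/zVAD and LPS. The lower and upper quartiles were 24.2% and 44.1%, and the highest return was 49.6%. In 26 members the return was under 25%, and in 70 it was 25% or more. Most members thus returned in part, and 6 (5 of them named) stood lower with Nec-1 than with LPS/zVAD alone.

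**Figure D1:**
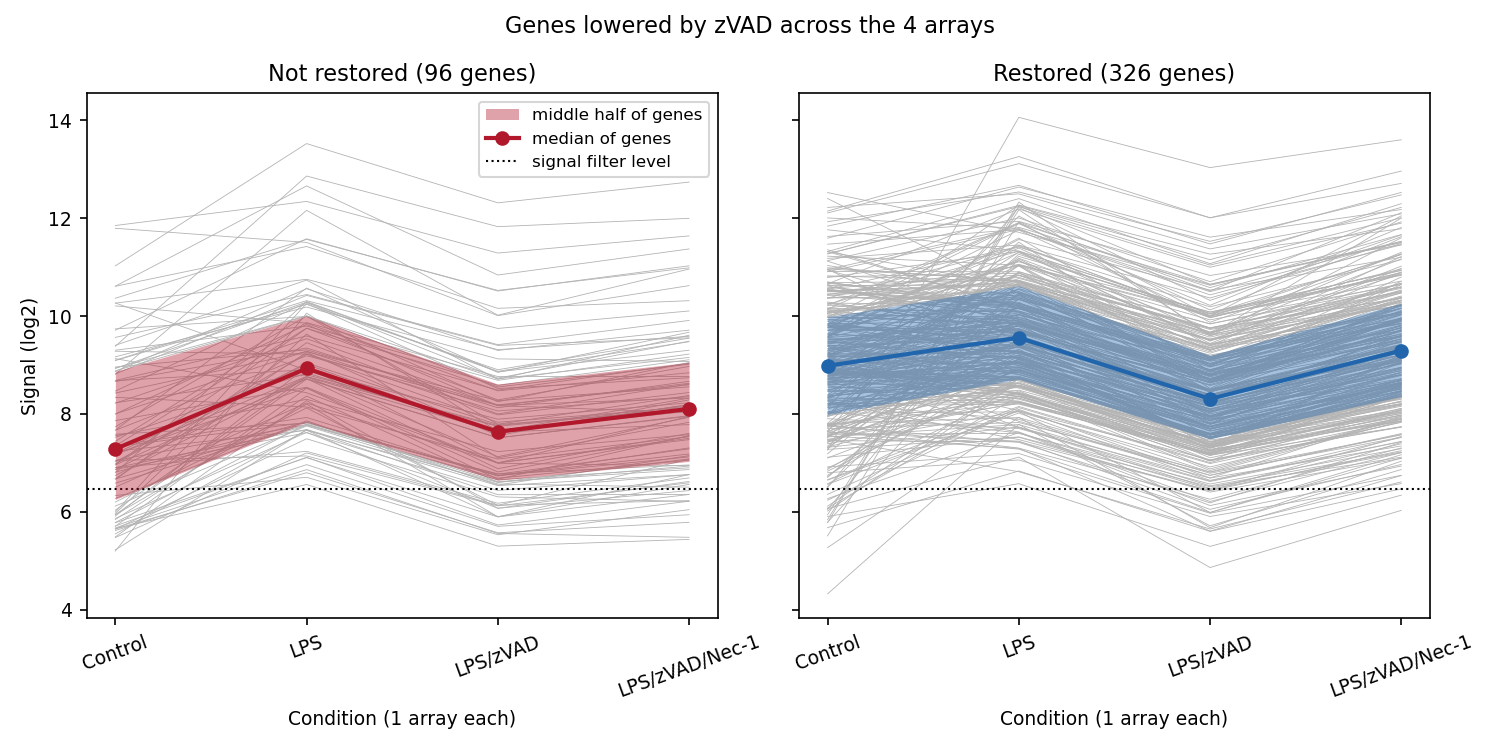
Log2 signal of each zVAD-lowered gene (grey lines) on the 4 arrays, with the median (points) and quartile band, for the 96 unrestored genes (left) and the 326 restored genes (right); the dotted line is the signal filter level of 6.47. The unrestored genes have a median of 7.28 in control and 8.10 on the array with both inhibitors, against 8.98 and 9.29 for the restored genes.

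The control array took no part in the contrasts that chose the members, although the LPS and LPS/zVAD arrays set against it did. Of the 96 unrestored genes, 65 (67.7%) were at least 2-fold higher with LPS than in control and 1 was at least 2-fold lower, against 8.24% and 7.2% of all filtered genes. Counted from the filter level of log2 6.47, 59 of the 65 were at least 2-fold higher. That level is the median of all values, and signals under it are treated as low because background was not measured. With the zVAD threshold set at 1.5-fold or 3-fold, the share raised by 2-fold with LPS was 35.8% or 95.2% of the genes then chosen. The restored genes had 103 of 326 (31.6%) higher and 9 lower. Median log2 differences between LPS and control were 1.34 for the unrestored and 0.35 for the restored genes, and -0.12 for all filtered genes. The LPS array was the highest of the 4 for 90 of the 96 members, for 207 of the 326 restored genes and for 21.7% of all filtered genes. The choice of members placed LPS above both inhibitor arrays in all 96, so only control could exceed it. It also placed LPS above LPS/zVAD in the restored genes. These counts therefore cannot be compared with the share of all filtered genes. Across all filtered genes the split of lower and higher calls with zVAD was 438 and 396 as deposited, 510 and 371 with arrays centred on their medians, 316 and 433 after quantile normalization and 312 and 462 after cyclic loess. The counts of genes higher with LPS than in control share the LPS array with the zVAD contrast. The midpoint that parts unrestored from restored genes uses that array too. A single array thus bears on all of them.

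Set against control, the LPS/zVAD signal does not contain the LPS array. The choice of both sets did use the LPS/zVAD signal, and the split between them used it with the Nec-1 signal. A low reading on the single LPS/zVAD array bears on the choice and on these counts, so they are a description only. Of the 96 unrestored genes 74 (77.1%) lay within 2-fold of control with LPS/zVAD, near the 80.5% of all filtered genes. Of the 96, 15 were at least 2-fold higher and 7 at least 2-fold lower, where 8.79% of all filtered genes were higher and 10.7% lower. The median log2 difference was 0.08 for the unrestored genes and -0.14 for all filtered genes. Of the 326 restored genes, 24 were higher than control with LPS/zVAD and 138 (42.3%) were lower, with a median of -0.80. Members at least 2-fold higher with LPS are called raised by LPS. Of these 65, 50 were back within 2-fold of control with LPS/zVAD, and 15 stayed at least 2-fold above it. The restored genes were alike in this. Of the 103 at least 2-fold higher with LPS, 78 were within 2-fold of control with LPS/zVAD and 24 stayed above. With LPS/zVAD/Nec-1, 27 of the 96 were at least 2-fold above control (6.85% of all filtered genes) and 4 at least 2-fold below it (7.68%). Among the 326 restored genes 79 were above control and 19 below it on that array. At the medians, the unrestored genes were higher with LPS than in control, near control with zVAD and partly higher again with Nec-1, and the restored genes were below control with zVAD. These counts below control depend on the scaling. With arrays centred on their medians they were 15 of 131 unrestored and 136 of 362 restored genes, after quantile normalization 6 of 72 and 87 of 235, and after cyclic loess 9 of 86 and 77 of 216.

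**Figure D2:**
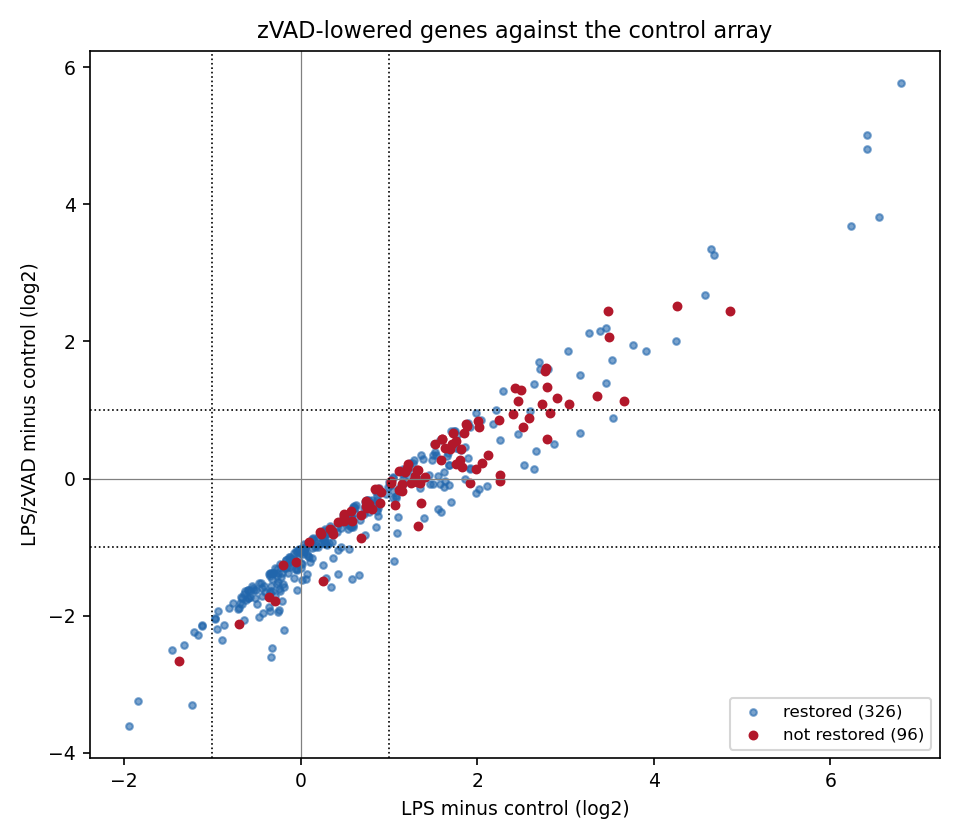
Log2 difference from control with LPS (horizontal axis) and with LPS/zVAD (vertical axis) for the 96 unrestored (red) and 326 restored (blue) genes; dotted lines mark 2-fold differences. Of the red points 7 lie at or below the lower dotted line and of the blue points 138; the 2 axes share the control array.

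Promoter sequences were examined as a feature the choice of members did not use. RefSeq promoters of build GRCm38.p6, running from 250 bases before to 50 after a gene's start, were found for 75 of the 96 members by gene identifier (94 promoters). The NF-kB consensus, searched on both strands, was present in 15 of the 94 (16.0%), in 12.2% of the 360 promoters of restored genes, in 10.6% of the 12341 promoters of all filtered genes and in 8.46% of the 32851 in the table. AP-1 (TGANTCA) was present in 7.45%, 3.33%, 5.38% and 7.81% in the same order, ISRE in 6.38%, 3.33%, 3.05% and 3.44%, and C/EBP (TTGCNNAA) in 13.8%, 11.9%, 8.48% and 10.8%. The ETS motif bound by PU.1 (AGGAAGT) was present in 11.7% of member promoters and 9.08% of those of filtered genes. The E-box (CACGTG) stood at 11.7% and 9.76%, CRE (TGACGTCA) at 4.26% and 2.95%, the AhR core (GCGTG) at 38.3% and 49.0%, and TATAAA at 8.51% and 7.28%. Both strands were searched for each, and no 2 of these motifs were merged where they overlapped. The neighbouring receptor genes Pilra, Pilrb1 and Pilrb2 have closely similar promoters, each with an ISRE, a C/EBP and an ETS match. They were counted separately, which raises the member shares of these motifs. Median GC content was 59.5% in member promoters and 60.7% in those of filtered genes. Most member promoters lacked each of these motifs, and a match is a description of letters, not a binding site.

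Of the members whose values are given on every array below, 5 were at least 2-fold higher with LPS and had an NF-kB match in this window. They are the chemokine receptor gene Ccr3, the cytokine subunit gene Ebi3, the glutathione transferase gene Gstt4, the membrane protein gene Ms4a4a and the NADPH oxidase gene Nox1. A match was also present in Smap1, Dpy19l3, Jdp2, Acvr1b and Ifitm7, which were likewise at least 2-fold higher with LPS. The other members with a match were Ak4, Naip5, Sdhaf4, Bend6 and Rnf180, none of them 2-fold higher with LPS. A link between the match and the LPS difference was not tested. The promoters of Ccr3, Ebi3, Gstt4, Ms4a4a and Nox1 are shown 5′ to 3′ along the gene, with the NF-kB match in capitals.
Their positions are chr9:124021721-124022020 (plus strand) for Ccr3, chr17:55952373-55952672 (plus strand) for Ebi3, chr10:75822494-75822793 (minus strand) for Gstt4, chr19:11375238-11375537 (plus strand) for Ms4a4a and chrX:134111805-134112104 (minus strand) for Nox1, each spanning the 300 bases around the gene's start.
Ccr3: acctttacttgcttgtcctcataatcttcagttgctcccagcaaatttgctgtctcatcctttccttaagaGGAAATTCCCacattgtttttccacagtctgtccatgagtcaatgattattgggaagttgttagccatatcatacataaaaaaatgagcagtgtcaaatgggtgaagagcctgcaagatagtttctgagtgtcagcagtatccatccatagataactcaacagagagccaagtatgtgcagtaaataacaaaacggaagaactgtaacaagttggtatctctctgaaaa
Ebi3: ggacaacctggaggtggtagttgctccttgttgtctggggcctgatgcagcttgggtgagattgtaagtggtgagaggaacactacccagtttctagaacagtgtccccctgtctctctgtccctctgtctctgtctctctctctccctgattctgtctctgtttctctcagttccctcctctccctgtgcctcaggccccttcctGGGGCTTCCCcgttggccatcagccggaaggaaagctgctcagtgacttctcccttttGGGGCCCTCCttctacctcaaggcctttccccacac
Gstt4: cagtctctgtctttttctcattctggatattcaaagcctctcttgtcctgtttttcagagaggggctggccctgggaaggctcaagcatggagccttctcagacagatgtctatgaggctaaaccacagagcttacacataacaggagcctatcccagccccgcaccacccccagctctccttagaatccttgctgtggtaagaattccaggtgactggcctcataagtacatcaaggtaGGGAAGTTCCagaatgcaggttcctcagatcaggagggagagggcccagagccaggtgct
Ms4a4a: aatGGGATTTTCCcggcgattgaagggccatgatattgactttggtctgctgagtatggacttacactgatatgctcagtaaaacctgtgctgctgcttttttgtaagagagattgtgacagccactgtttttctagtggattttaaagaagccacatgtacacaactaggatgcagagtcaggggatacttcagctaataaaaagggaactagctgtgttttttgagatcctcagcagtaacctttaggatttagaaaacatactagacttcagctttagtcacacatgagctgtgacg
Nox1: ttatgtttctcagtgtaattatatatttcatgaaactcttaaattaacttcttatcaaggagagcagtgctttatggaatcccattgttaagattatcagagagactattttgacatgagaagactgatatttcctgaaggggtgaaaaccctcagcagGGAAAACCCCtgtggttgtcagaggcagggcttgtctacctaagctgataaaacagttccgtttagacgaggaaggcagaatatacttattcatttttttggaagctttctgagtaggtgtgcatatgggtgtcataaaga
In Ebi3 the first match, 44 to 35 bases before the start, reads on both strands, and the second lies after the start. The Gstt4 match ends on the last base before the start, and the Ms4a4a match lies at the far end of the window. With Nec-1, the 5 genes regained between none of their loss (Ccr3, a return of -5.34%) and 49.2% of it (Nox1).

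Among cytokines, chemokines and their receptors all 7 members were at least 2-fold higher with LPS than in control. Of the 7, 6 were at least 2-fold lower with LPS/zVAD/Nec-1 than with LPS, as were 28 of all 96 members. Counted from the filter level these counts are 6 and 5 of the 7, and 24 of the 96, the difference in this group being Il1rl2. Of all filtered genes 0.541% were so lowered and 0.0738% so raised. The choice of members fixed the LPS/zVAD/Nec-1 minus LPS difference below 0 in all 96 (highest -0.52), so these shares cannot be compared. Il1f6, which encodes the cytokine IL-36 alpha, had log2 signals of 5.20 in control, 10.06 on the LPS array, 7.65 after zVAD and 8.32 after both inhibitors. It was 5.33-fold lower with zVAD and 3.33-fold lower with both inhibitors than with LPS, and at least 12.03-fold higher with LPS than in control, counted from the filter level. Il1rl2, the gene of the receptor that IL-36 alpha binds, stood at 5.62, 6.86, 5.56 and 5.48 in the same order. Only its LPS signal was above the filter level, so its loss with zVAD is a bound of at least 1.31-fold, and the gene is a member through signals near or under that level.

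Ppbp, the gene of the platelet chemokine CXCL7, had log2 signals of 7.998, 9.83, 8.17 and 8.03. It was 3.16-fold lower with zVAD and 3.48-fold lower with both inhibitors, which left it level with control. Ccr3, a chemokine receptor known from eosinophils, read 6.12, 7.75, 6.57 and 6.503, and its inhibitor signals were close to the filter level. Tnfsf4, which encodes the costimulatory ligand OX40L, had 5.22, 7.68, 6.35 and 6.35. Both of its inhibitor signals were under the filter level, and it was at least 2.31-fold lower than with LPS on each of them. Cmklr1, the receptor of the chemoattractant chemerin, had 7.74, 10.00, 7.79 and 8.38, which placed LPS/zVAD at the control signal. Ebi3, the subunit shared by IL-27 and IL-35, read 9.71, 11.58, 10.51 and 11.03. It was the one member of this group past 40% return, at 48.3%, and the one within 2-fold of LPS once Nec-1 was present.

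Genes near zero return belonged to several roles. Besides Ppbp, Ccr3 and Il1rl2, the calcium channel gene Orai2 and the kinase gene Alpk2 were lower with Nec-1 than with LPS/zVAD alone, and Ppbp had the lowest Nec-1 difference of all members, -0.14 on the log2 scale. Orai2 had signals of 9.17, 10.19, 9.13 and 9.07. A second Orai2 probe, which the choice of members did not use, had 8.99, 10.17, 8.91 and 8.83, and so showed the same order of arrays. Alpk2 had 5.65, 7.49, 6.30 and 6.21, with both inhibitor signals under the filter level. Fscn1, which encodes the actin-bundling protein fascin of mature dendritic cells, read 7.44, 9.87, 8.76 and 8.77, a return of 0.187%. The order of such near-equal pairs is not settled by single arrays.

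**Figure D3:**
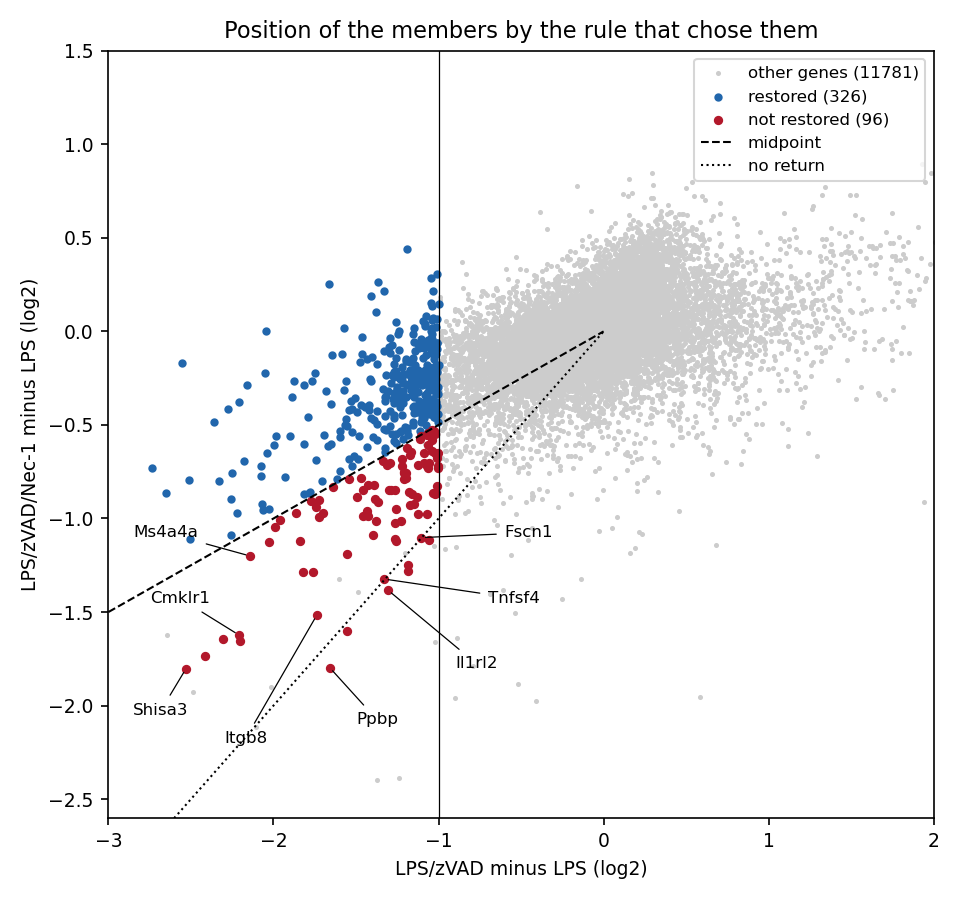
Log2 difference from LPS with LPS/zVAD (horizontal axis) and with LPS/zVAD/Nec-1 (vertical axis) for all filtered genes inside the plotted range, with the midpoint (dashed) and no-return (dotted) lines that classify them; the 96 unrestored genes are red and the 326 restored genes blue. Shisa3 lies farthest left among the red points, and Ppbp and Il1rl2 lie below the no-return line.

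Receptors of myeloid cells and their kinases gave 11 members, of which 5 were at least 2-fold higher with LPS. Ms4a4a, a tetraspan membrane protein gene, had log2 signals of 8.81, 12.16, 10.02 and 10.96, which is 4.42-fold lower with zVAD than with LPS. Klra2, of the Ly49 family of lectin receptors, had 5.55, 7.67, 5.90 and 6.76. Its control and LPS/zVAD signals were under the filter level, and it was at least 2.29-fold lower with zVAD. Both were raised by LPS. The return with Nec-1 was 44.0% for Ms4a4a, and for Klra2 48.7% as measured and 24.1% counted from the filter level.

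The Pilr and Trem receptor genes were expressed in control as well. Pilra, an inhibitory receptor, read 11.85, 12.34, 11.29 and 11.64, and its activating partner Pilrb1 read 8.68, 9.59, 8.49 and 9.03. Pilrb2 had a log2 difference of -1.07 between LPS/zVAD and LPS. The 3 genes are direct neighbours in the RefSeq gene order, and Pilrb1 and Pilrb2 are near-identical copies whose probes may share signal. Trem1, an amplifier of inflammatory signalling, had 9.28, 9.22, 8.06 and 8.35, and Treml4, with 1 coding gene between it and Trem1, had 7.33, 7.82, 6.74 and 7.12. None of these 5 genes was 2-fold higher with LPS, and each of them was lower with LPS/zVAD than in control.

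Nfam1, an ITAM-bearing receptor, was the one unrestored gene at least 2-fold lower with LPS than in control, at 10.27, 8.89, 7.60 and 8.19. Each treated array was lower than control, and zVAD took the signal down further. Tarm1 and the Src family kinase gene Fgr, which works downstream of such receptors, had log2 differences of -1.39 and -1.20 with zVAD and were 4.74-fold and 2.49-fold higher with LPS. Mcemp1, of mast cells and monocytes, stood at -1.01. The wider list of C-type lectins and immune receptors had 39 genes past the filter. Of these 13 were at least 2-fold lower with zVAD and 1 was higher, against 3.59% and 3.25% of all filtered genes. Its members were 5 (Trem1, Treml4, Pilra, Pilrb1 and Klra2), where all 12203 filtered genes held 96. The median zVAD difference was -0.43 against -0.05 for all filtered genes, and enrichment was not tested.

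The 3 inflammasome members are sensors. Nlrc4 had log2 signals of 6.81, 7.83, 6.74 and 7.18. Naip5, which binds flagellin and hands the signal to NLRC4, had 8.43, 9.27, 8.27 and 8.55, and lay just past the 2-fold threshold at -1.003. Mefv, the gene of pyrin, had 5.78, 7.79, 6.62 and 6.86. Nlrc4 and Naip5 were slightly lower with LPS/zVAD than in control, whereas Mefv stayed above its control signal, which was under the filter level. Naip5 belongs to a family of close copies, and signal from them was not separated here. Of 18 inflammasome and pyroptosis genes past the filter, 4 were at least 2-fold lower and 0 higher with zVAD (median -0.42). The shares of all filtered genes were 3.59% and 3.25%. Pycard, the adaptor, was the other of the 4 and was restored.

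Secreted proteins, enzymes and the interferon-induced membrane proteins numbered 8, and all 8 were at least 2-fold higher with LPS. Lcn2, which encodes the iron siderophore-binding protein lipocalin 2, had 9.38, 12.86, 11.83 and 11.998. Its signal was 11.2-fold higher with LPS than in control and remained far above control on each LPS array. Hdc, the histamine-forming enzyme, read 6.80, 10.30, 8.87 and 9.48, also above control on each LPS array. Nox1, a catalytic subunit of NADPH oxidase, had 6.03, 8.76, 7.13 and 7.93. Ifitm1, which restricts virus entry, had 10.61, 12.66, 10.84 and 11.37, and a second Ifitm1 probe had 9.28, 11.87, 9.97 and 10.39. The zVAD difference was -1.82 on the first probe and -1.89 on the second, and the return 29.24% and 22.03%. Ifitm7, at -1.08, is a related gene of the same family. Acpp, Plbd1 and Wfdc18 completed the group with differences of -1.55, -1.01 and -1.13, of which that of Acpp, under the filter level with zVAD, is a loss of at least 2.22-fold.

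Lcn2, Hdc, Dcn and Fscn1 are also markers of other cells, so those lists are given whole. Of 14 filtered neutrophil markers 3 were at least 2-fold lower with zVAD (Lcn2, Mmp8 and Mmp9), and the log2 of the summed signal of the 16 measured was 12.47, 14.02, 13.26 and 13.35, with Cxcr2 and Retnlg under the filter level on all arrays. Of the 11 mast cell and basophil markers 10 were under it on all arrays, among them Kit, Cpa3 and Fcer1a, and Hdc was the exception (summed signals 8.87, 10.63, 9.67 and 10.08). The stromal list had 2 of 11 filtered genes lower (Dcn and Pecam1), summed signals of 10.75, 11.57, 11.14 and 11.33, and 5 of 16 under the filter level, among them Pdgfra and Lum. The dendritic cell list had 2 of 8 lower (Fscn1 and Ccl17), summed signals of 10.66, 13.57, 13.50 and 12.97, and Flt3, Xcr1, Clec9a and Cd209a under the filter level. Their part in the results was not tested. No B cell, T and NK cell or erythroid marker past the filter was at least 2-fold lower with zVAD (0 of 2, 0 of 4 and 0 of 2, against 3.59% of all filtered genes).

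**Figure D4:**
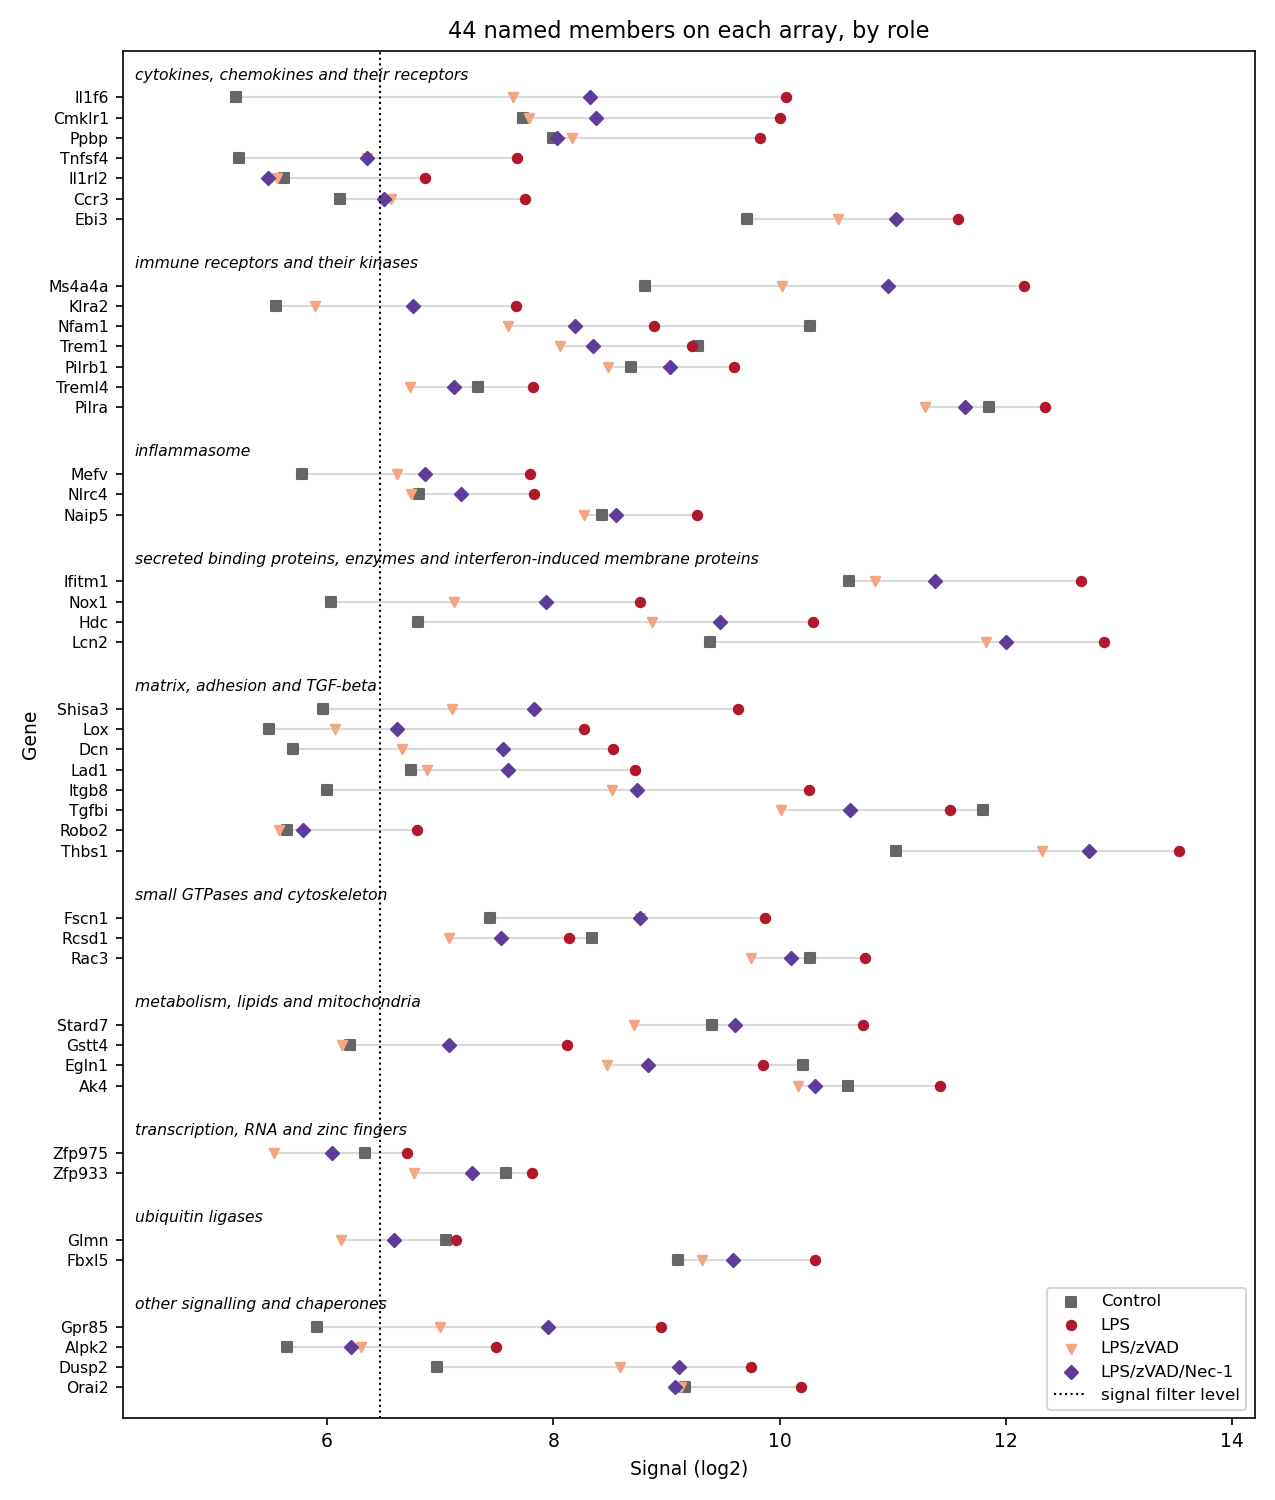
Log2 signals of 44 named members on the 4 arrays, grouped by role and ordered by the zVAD difference; the dotted line is the signal filter level of 6.47. The LPS signal (red circles) is the highest in each row except Nfam1, Trem1, Tgfbi, Rcsd1 and Egln1, where control is, and LPS/zVAD is hidden behind LPS/zVAD/Nec-1 in Tnfsf4 and Fscn1.

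Matrix, adhesion and TGF-beta genes gave 12 members, 11 of them at least 2-fold higher with LPS, or 9 when counted from the filter level, without Antxr1 and Robo2. Shisa3, an inhibitor of Wnt and FGF receptors, had the lowest zVAD difference of all members, with log2 signals of 5.97, 9.63, 7.10 and 7.83. It was 5.78-fold lower with zVAD and 3.49-fold lower with both inhibitors. Itgb8, the integrin subunit that releases active TGF-beta from its latent form, read 5.995, 10.26, 8.52 and 8.74. It stayed well above its control signal with zVAD, and Nec-1 returned 12.7% of the loss.

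Several products in this group build or modify matrix. Lox, which crosslinks collagen, had 5.49, 8.27, 6.07 and 6.62, and was at least 3.48-fold lower with zVAD, where its signal was under the filter level. Dcn, the proteoglycan decorin, had 5.70, 8.53, 6.66 and 7.56, and Lad1, a basement membrane component, 6.74, 8.72, 6.88 and 7.60. Thbs1, the matrix protein thrombospondin 1, read 11.03, 13.53, 12.32 and 12.74. For Dcn, Lad1 and Thbs1 the order of arrays was control, LPS/zVAD, LPS/zVAD/Nec-1 and LPS, as in 48 of the 96 members. Tgfbi, a TGF-beta-induced adhesion protein, differed from them at 11.80, 11.51, 10.01 and 10.62, with both inhibitor signals below control. Robo2, a guidance receptor, was near the filter level at 5.65, 6.80, 5.57 and 5.78. Acvr1b, an activin receptor, Antxr1, Plxdc2 and the proteoglycan gene Agrn had zVAD differences from -1.38 (Antxr1) to -1.02 (Agrn). The fixed list of adhesion, matrix and protease inhibitor genes had 7 of 38 filtered genes at least 2-fold lower with zVAD and 2 higher. Among all filtered genes 3.59% were lower and 3.25% higher.

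Regulators of small GTPases and of actin gave 10 members, 6 of them raised by LPS. Cdc42ep2 and Rhoq, an effector of Cdc42 and a relative of it, had zVAD differences of -1.72 and -1.43, and the Rap regulator Sipa1l1 and the exchange factor Spata13 had -1.47 and -1.39. Rac3, a Rac GTPase, had log2 signals of 10.27, 10.75, 9.75 and 10.10, and Rcsd1, an actin capping protein regulator, 8.34, 8.14, 7.08 and 7.53. Both lay below control on the 2 inhibitor arrays. Arhgap31, Smap1 and Tbc1d7 lay between -1.22 (Tbc1d7) and -1.02 (Arhgap31). Except for Fscn1 and Rhoq, at 0.187% and 31.0%, the 10 genes had returns between 35.6% and 48.2%.

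Metabolic, lipid and mitochondrial genes were the most numerous role, with 15 members, and 7 of them were raised by LPS, or 6 when counted from the filter level, without Nt5c1a. Stard7, a carrier of phosphatidylcholine to mitochondria, had log2 signals of 9.40, 10.74, 8.71 and 9.61, and was 4.08-fold lower with zVAD. It is the direct neighbour of Dusp2 in the RefSeq gene order. Dusp2, a phosphatase of MAP kinases, read 6.97, 9.75, 8.59 and 9.11, so the 2 neighbours differed in how far zVAD took them down (-2.03 and -1.17) and were alike in their return, 44.4% and 44.8%. Gstt4 had 6.20, 8.12, 6.13 and 7.07, with control and LPS/zVAD under the filter level and a loss of at least 3.14-fold.

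Egln1 encodes PHD2, the main oxygen sensor that marks HIF-1 alpha for degradation, and Ak4 is a mitochondrial adenylate kinase induced by HIF. Egln1 had 10.21, 9.85, 8.47 and 8.84, highest in control, and Ak4 had 10.61, 11.42, 10.16 and 10.31. Both stayed at least 2-fold lower with LPS/zVAD/Nec-1 than with LPS, by 2.02-fold and 2.16-fold. For Egln1 that difference was under 2-fold after quantile normalization (-0.90) and cyclic loess (-0.96). A second Ak4 probe read 8.35, 9.22, 8.33 and 8.29, a zVAD difference of -0.90 and a difference between both inhibitors and LPS of -0.93, each under 2-fold, with a return of -3.59%. The list of hypoxia and glycolysis genes had 3 of 26 filtered genes at least 2-fold lower with zVAD (Egln1, Ak4 and Pfkl). It had 1 higher and a median of -0.24, where 3.59% of all filtered genes were lower and 3.25% higher.

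Gys1, the muscle-type glycogen synthase, and Plpp1, a lipid phosphatase, had zVAD differences of -1.74 and -1.72. Adhfe1, Sdhaf4, Etfrf1 and Ccdc90b, whose products act in mitochondria, lay between -1.26 (Adhfe1) and -1.11 (Ccdc90b). Sdhaf4, an assembly factor of succinate dehydrogenase, is the direct neighbour of Smap1, and its second probe showed no loss, at 6.20, 5.96, 6.05 and 6.34, with all 4 signals under the filter level. Nt5c1a, Abca7, Abhd18, Dpy19l3 and Prelid2 completed the role at -1.46 (Prelid2) to -1.04 (Abca7).

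Transcription and RNA genes gave 10 members. Spic, a relative of PU.1 known from red pulp macrophages, had a difference of -1.76 with zVAD and was at least 3.71-fold higher with LPS than in control. Zmynd15, the repressor gene Zeb1 and the AP-1 partner gene Jdp2 were also raised by LPS and had zVAD differences of -1.70, -1.46 and -1.02. Ago3, a small RNA effector, was raised as well and stood at -1.30. The zinc finger genes Zfp933, Zfp943, Zfp975 and Zfp983 formed another kind, with LPS differences from control of 0.23 to 0.78 and zVAD differences of -1.04 to -1.17. Zfp933 read 7.58, 7.81, 6.77 and 7.29, and Zfp975 6.33, 6.70, 5.53 and 6.04, so LPS and control were closer in these genes than in the raised ones. Such genes come in large families of similar sequence, and signal from relatives was not separated. Bend6, at -1.06, had an LPS/zVAD signal under the filter level.

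Ubiquitin ligase genes and their regulators gave 4 members. Fbxl5, which targets an iron-regulatory protein, had log2 signals of 9.10, 10.32, 9.31 and 9.59, and Glmn, which binds cullin ligases, 7.05, 7.14, 6.12 and 6.59. Dcun1d3 and Rnf180 had zVAD differences of -1.26 and -1.13. Fbxl5 was near its control signal with zVAD, and Glmn was under it.

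The remaining named members were all raised by LPS. Gpr85, an orphan receptor, had 5.91, 8.96, 7.00 and 7.95, and was 3.89-fold lower with zVAD. Hspa1l, of the HSP70 family, had a difference of -1.20, and Tmem268, Spaca6 and Spats2l had -1.37, -1.31 and -1.21. Gpr85, Hspa1l and Spaca6 were under the filter level in control. The 8 members with predicted, clone or pseudogene symbols had zVAD differences from -2.304 to -1.011, and 4 of them were raised by LPS, or 2 when counted from the filter level.

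Members at the edges of the definition differ little from genes outside it. Just inside the 2-fold threshold lay Fbxl5, Naip5 and Rac3, at -1.0013, -1.0031 and -1.0047, and just outside it Mtres1, Cd302 and Rprd1a, at -0.981, -0.980 and -0.979. At the midpoint, Zfp933, Pilrb1 and Nox1 had returns of 49.6%, 49.6% and 49.2%, and the restored genes Cfap97, Hmgn3 and Klf3 had 50.5%, 51.0% and 51.1%. At the signal filter, Zfp975, Robo2 and Il1rl2 had highest signals of 6.70, 6.80 and 6.86, and Adgre4, at 6.25, was outside it. For 18 of the 96 members the LPS/zVAD signal was under the filter level. Their log2 differences and returns rest on low signals whose separation from background was not measured. The 14 named ones are Lox, Gstt4, Klra2, Acpp, Antxr1, Tnfsf4, Il1rl2, Robo2, Alpk2, Abhd18, Zfp975, Nt5c1a, Bend6 and Glmn. Counted from the filter level the median return of the 96 was 32.9%, and 86 of the 96 were at least 2-fold lower with zVAD. After quantile normalization or cyclic loess the zVAD difference was under 2-fold in 11 of the 44 genes with values on each array, namely Ebi3, Fbxl5, Fscn1, Lcn2, Naip5, Orai2, Pilra, Pilrb1, Rac3, Rcsd1 and Zfp933. The difference between both inhibitors and LPS was under 2-fold in Egln1, Fscn1, Gpr85 and Orai2, where it had been past it.

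Several lists gave no member. None of 25 filtered NF-kB pathway and feedback genes, 36 interferon stimulated genes, 37 proteasome subunits, 36 lysosome and cathepsin genes, 23 necroptosis and death receptor genes and 23 caspases and BCL-2 family genes was an unrestored gene. At least 2-fold lower with zVAD were 2, 0, 1, 0, 0 and 0 of them, in the same order, against 3.59% of all filtered genes. Members were 96 of all 12203 filtered genes, so a list of this size can lack one at that same share. Whether these lists were spared was not tested. Of 25 filtered dendritic cell maturation genes 4 were lower and 4 higher with zVAD, against 3.59% and 3.25% of all filtered genes. All 4 lower ones were below the midpoint, against 25.6% of all zVAD-lowered genes, and 3 were members (Fscn1, Tnfsf4 and Lad1). Immediate early and AP-1 genes had 15 of 38 higher with zVAD and 1 lower, which was Dusp2. Inflammatory cytokines had 11 of 29 higher and 3 lower, of which Il1f6 and Ebi3 were members. The same shares of all filtered genes apply here. The lists were chosen with earlier results of these data known, and enrichment was not tested.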

How the data were processed

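RNA of macrophages in 4 conditions was hybridised to 1 Affymetrix array each, and samples were grouped by their titles. The authors deposited 1 log2 signal per gene-level probe. Per the submitters' processing notes these came from Affymetrix Expression Console, and that they are log2 was inferred from their range. For its version, background correction, summarisation, normalization and genome build: not given in the sources used here. An unknown scaling moves every difference. Scanner files and detection calls were not used here.

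Of 35556 probes, 21789 had 1 gene symbol in the platform annotation, 1621 several and 12146 none, and the latter 2 kinds were not named. Where a gene had several probes, the one highest on average was used (19938 genes). The filter, passed by 12203 genes, asked that the highest of the 4 signals reach the median of the table (log2 6.47). Differences are between log2 signals of single arrays, and 2-fold is a rule of size, with no test. Return is the LPS/zVAD/Nec-1 minus LPS/zVAD difference as a percent of LPS minus LPS/zVAD. The definition leaves out Abca1, Scd2, Hp, Siglece, Serpinb2, Serpinb10, Ccl17, Cxcl3, Ptges, Il2ra, Rasgrp1, Slamf1, Mmp8, Mmp9, Egln3 and symbols starting Slc, Trim or Rab. The members and the 39 gene lists (1004 of 1100 list places matched, 8 by an older symbol) were chosen with earlier results of these data known, and the role groups after the members' names were seen.

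Values on each array are given for 44 members. They are the 12 with the lowest LPS/zVAD minus LPS, the 8 with the lowest LPS/zVAD/Nec-1 minus LPS, the 6 with the lowest LPS/zVAD/Nec-1 minus LPS/zVAD, the 6 highest and 6 lowest in LPS minus control, up to 4 of each list and the 3 nearest each threshold. Predicted, clone and pseudogene symbols are counted only. Neighbours and promoters come from RefSeq (GRCm38.p6), and 95 of the 96 members matched it by identifier. Alternatives were 3 scalings (limma 3.58.1 in R 4.3.3 for quantile and cyclic loess), filters, thresholds and probe choice. Selection was tested on simulated data with clear planted losses, returned in full or not at all. No loss near the 2-fold threshold or the midpoint was planted, so calls near them were not tested. Python 3.11.15 and pandas 2.3.3 were used.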

Additional observations from a re-analysis of the deposited data

How the results depend on the processing

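Loosening or tightening the definition moved the number of unrestored genes most: 330 at a 1.5-fold threshold, 21 at 3-fold, 159 with the midpoint on the linear scale and 26 with return under 25%, against 96. Members raised by LPS then numbered 118, 20, 98 and 21, against 65. Members at least 2-fold lower with LPS/zVAD/Nec-1 than with LPS numbered 14 at 3-fold and 16 with return under 25%, against 28. Those lower with Nec-1 than without it numbered 39 at 1.5-fold, 1 at 3-fold and 11 with no gene left out by symbol, against 6. The median difference between LPS/zVAD/Nec-1 and LPS was -0.59 at 1.5-fold, -1.13 at 3-fold and -1.09 with return under 25%, against -0.87. That between LPS/zVAD/Nec-1 and LPS/zVAD was 0.27, 0.73, 0.16 and, on the linear midpoint, 0.58, against 0.45. These follow from how each alternative draws the set.

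Scaling left between 72 (quantile) and 131 (arrays centred on their medians) unrestored genes, with cyclic loess at 86, of which 72, 96 and 79 were among the 96. All 96 members kept the sign of the zVAD difference under centring, quantile normalization and cyclic loess, and 78 of them stayed at least 2-fold lower under quantile normalization. Under centring 15 members were at least 2-fold lower with LPS/zVAD than control, against 7, out of the 131, and restored genes so lowered numbered 136 of 362 under centring, 77 of 216 under cyclic loess and 87 of 235 under quantile normalization, against 138 of 326; the cause was not tested. These counts, and setting low signals to the filter level (90 unrestored genes; of the 96, 59 raised by LPS and 24 lower with both inhibitors), were chosen after seeing the data. No paired analysis was possible because each condition has 1 array. Leaving out an array was not possible for the same reason. Signals near the filter level limit the low members.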

Other observations

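Of 5843 probes with several or no gene symbol past the signal filter, 199 were at least 2-fold lower with LPS/zVAD than with LPS, and in 117 of those the LPS/zVAD/Nec-1 signal lay below the midpoint. Among named genes it was 112 of 438 (25.6%). These probes were not used in the counts above.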
